A study of Homo sapiens with 6 samples.

Results

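The genes described here are 32 components and targets of the NRF2 antioxidant programme and of the pentose phosphate pathway, taken by gene symbol from a table of 19395 genes, all 32 of which were present and passed the filter on low counts. They were measured by sequencing of polyadenylated RNA in 3 oeTNFRSF12A and 3 oeControl libraries of human cells labelled DLD-1, an established colorectal adenocarcinoma line. The oeTNFRSF12A cells overexpressed TNFRSF12A (Fn14, the receptor for the cytokine TWEAK) and had received doxycycline at 0.1 µg/mL for 48 h to induce it, while the oeControl cells are labelled WT and untreated. Overexpression and exposure to doxycycline therefore cannot be told apart, and the labels do not say whether the control cells carry a construct. The promoter that drives the transgene, clonality and whether replicates were separate cultures are not stated. The edgeR p-values below therefore weigh the group difference against the spread of libraries within a group, which may be technical only.

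NRF2, encoded by NFE2L2, is a transcription factor that pairs with small MAF proteins at antioxidant response elements. In unstressed cells KEAP1 hands NRF2 to a CUL3 ubiquitin ligase for degradation, the autophagy receptor SQSTM1 can sequester KEAP1, and BACH1 is a repressor that occupies the same elements. The targets make and recycle glutathione and thioredoxin, reduce quinones and carbonyls, break down haem, store iron and supply NADPH, part of which comes from the oxidative branch of the pentose phosphate pathway.

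The induced gene was checked first: TNFRSF12A had 1203, 1133 and 1305 counts in oeTNFRSF12A libraries, against 404, 365 and 423 counts in oeControl libraries, a fold change of 3.00. Library totals were 18154839 to 18406885 counts. Chi-square statistics per gene were 1.63 to 3.47 between libraries of the same group and 18.6 to 20.8 between groups, and the highest values within a group came from pairs with oeTNFRSF12A replicate 3. Of 14 colon epithelium markers, CDH1, KRT8 and KRT18 were at or above 1 CPM in each of the 6 libraries, and the other 11 were below that level in each; CDX1, CEACAM5 and CEACAM6 had 0 counts. Their summed level was 321 to 335 CPM in oeTNFRSF12A and 337 to 342 CPM in oeControl libraries. Of 10 kidney epithelium markers, 7 reached 1 CPM in all libraries, among them PAX2 and LHX1, with a summed level of 201 to 212 CPM in oeTNFRSF12A and 225 to 238 CPM in oeControl libraries. Of 7 fibroblast markers, COL1A1, COL1A2 and COL3A1 reached 1 CPM in all libraries, DCN and LUM had 0 counts, and the sum was 1112 to 1158 CPM in oeTNFRSF12A and 1553 to 1661 CPM in oeControl libraries. Immune markers, with CD3E at 0 counts, summed to 6.92 to 8.46 CPM in oeTNFRSF12A and 6.61 to 8.30 CPM in oeControl libraries. Endothelial markers, with VWF at 0 counts, summed to 0.647 to 0.981 CPM in oeTNFRSF12A and 1.27 to 1.78 CPM in oeControl libraries. Single markers did not all move with these sums. Of the fibroblast markers COL1A1, at a mean of 333 CPM in oeTNFRSF12A and 599 CPM in oeControl libraries, COL1A2 and PDGFRB were lower. COL3A1 (48.4 and 41.4 CPM, in the same order) and PDGFRA were higher. Of the kidney markers CDH6 (45.1 and 36.3 CPM) and LHX1 (14.7 and 13.4 CPM) were higher, and the others with counts were lower. The part of these differences in the results below was not tested, and in bulk RNA fewer cells of a type and less RNA per cell cannot be told apart.

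More of the 32 genes, which were chosen with earlier results of these data known, fell than rose in the oeTNFRSF12A libraries. By edgeR's quasi-likelihood F test (adjusted p under 0.05, Benjamini-Hochberg over all 12758 genes tested), 16 fell and 3 rose. The falls included NQO1, HMOX1 and AKR1C1 to AKR1C3. The rises were KEAP1 and BACH1, which restrain NRF2 and its targets, and PGD. NRF2 protein and activity were not measured here, and a link between these changes was not tested. Of all genes tested 42.3% were called, with 21.1% lower and 21.2% higher. The median log2 fold change of the 32 genes was -0.15, against 0.0032 over all genes tested. Values in CPM (counts scaled to a common library size) did not overlap between the groups for 21 genes that were lower and 3 that were higher in oeTNFRSF12A libraries, against 25.7% of all genes in each direction. Together the 32 genes took 0.872% to 0.945% of the counts in oeTNFRSF12A libraries and 1.03% to 1.07% in oeControl libraries, without overlap.

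**Figure D1:**
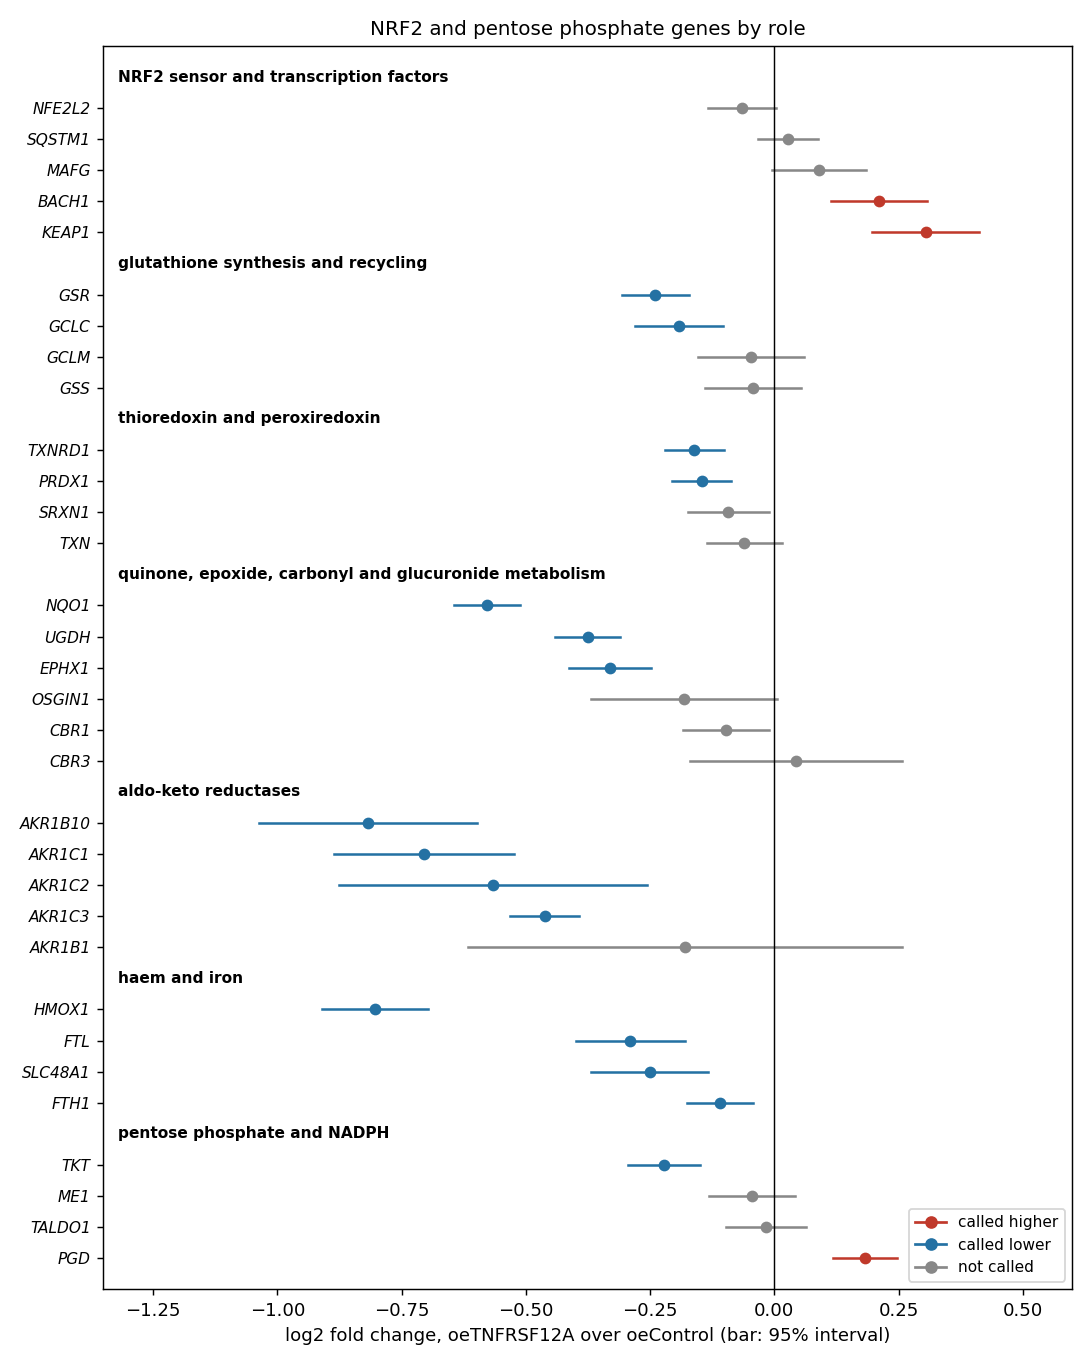
Log2 fold change of each of the 32 genes, oeTNFRSF12A over oeControl (points, with 95% intervals as bars; 3 libraries per group), grouped by role; blue marks genes called lower, red genes called higher and grey genes not called at an adjusted p under 0.05. The 3 red genes, KEAP1, BACH1 and PGD, stand right of 0, and the points furthest left are AKR1B10 (-0.82), HMOX1 (-0.80) and AKR1C1 (-0.71).

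Promoters are shown because NRF2 acts through short elements in the DNA of its targets. RefSeq promoter windows (GRCh38.p14, 250 bases before to 50 after the start) were found for 25 of the 32 genes; GSS, GSR, PRDX1, CBR3, AKR1B10, HMOX1 and FTH1 had no entry. The core of the antioxidant response element, searched as TGACNNNGC on both strands, was present in 5 of the 25 windows, in 14.9% of 10445 windows of genes tested and in 13.6% of all 27305 windows. The 5 genes were TXNRD1, which fell, PGD, which rose, and GCLM, CBR1 and ME1, which were not called. The windows of 1 gene of each outcome follow, 5′ to 3′ on the gene's strand, with the matches in capitals: TXNRD1 (chr12:104215529-104215828, plus strand), PGD (chr1:10398814-10399113, plus strand) and GCLM (chr1:93909381-93909680, minus strand).

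TXNRD1: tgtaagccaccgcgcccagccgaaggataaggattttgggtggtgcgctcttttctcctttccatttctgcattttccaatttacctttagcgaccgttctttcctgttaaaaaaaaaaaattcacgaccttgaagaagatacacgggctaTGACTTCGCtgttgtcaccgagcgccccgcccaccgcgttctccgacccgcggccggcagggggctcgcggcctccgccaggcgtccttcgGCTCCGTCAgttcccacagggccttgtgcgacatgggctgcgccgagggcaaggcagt
PGD: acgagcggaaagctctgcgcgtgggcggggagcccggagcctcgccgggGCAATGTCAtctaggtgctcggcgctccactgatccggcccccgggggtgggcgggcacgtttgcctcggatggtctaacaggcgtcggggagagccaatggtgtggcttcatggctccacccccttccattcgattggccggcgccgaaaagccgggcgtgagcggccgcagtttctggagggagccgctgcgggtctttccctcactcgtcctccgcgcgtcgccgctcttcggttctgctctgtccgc
GCLM: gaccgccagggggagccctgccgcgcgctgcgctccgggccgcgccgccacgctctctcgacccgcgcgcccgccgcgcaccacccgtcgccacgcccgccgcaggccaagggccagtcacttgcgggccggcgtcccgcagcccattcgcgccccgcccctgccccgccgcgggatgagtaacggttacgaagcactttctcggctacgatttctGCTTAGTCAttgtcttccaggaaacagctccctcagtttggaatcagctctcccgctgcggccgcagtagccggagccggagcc

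TXNRD1 has a match from base -99 and another from base -8, PGD a match from -201 and GCLM a match from -34, counted to the leftmost base with the start as base 1. The AP-1 motif TGANTCA overlapped a match only in ME1, among these 5 genes; it was present in 2 of the 25 windows and in 4.47% of the windows of genes tested. NQO1, UGDH, EPHX1, AKR1C1, AKR1C2 and AKR1C3, whose values follow, had no TGACNNNGC in these windows. A match is a run of letters and not a measured binding site, and elements outside the window were not searched.

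The NRF2 transcript itself was not called, while KEAP1 and BACH1 rose. NFE2L2 (chromosome 2, 177227595 to 177392697, minus strand; GRCh38, GENCODE release 29, as for all gene positions) had 155, 149.7 and 149 CPM in oeTNFRSF12A libraries, against 161, 155 and 158 CPM in oeControl libraries. The groups nearly touched without overlapping, and the log2 fold change of -0.06 had a 95% interval of -0.13 to 0.0042 (adjusted p = 0.124, edgeR). KEAP1 (chromosome 19, 10486120 to 10503741, minus strand), the adaptor that directs NRF2 to degradation, had 35.9, 37.5 and 36.2 CPM in oeTNFRSF12A libraries and 29.4, 29.5 and 29.8 CPM in oeControl libraries. All 3 oeTNFRSF12A libraries were above the controls, and the fold change was 1.23 (log2 fold change 0.30, SE 0.05, adjusted p = 4.69e-05 in edgeR). BACH1 (chromosome 21, 29194071 to 29630751, plus strand), the haem-regulated repressor of these targets, had 71.0, 64.8 and 65.8 CPM in oeTNFRSF12A libraries against 57.4, 60.8 and 56.0 CPM in oeControl libraries. It too rose without overlap (log2 fold change 0.21, SE 0.05, adjusted p = 7.66e-04 in edgeR). MAFG, a small MAF partner of both NRF2 and BACH1, had 57.7 ± 1.99 CPM in oeTNFRSF12A and 54.3 ± 2.09 CPM in oeControl libraries (SD, n = 3 each) and was not called (log2 fold change 0.09, 95% interval -0.0051 to 0.18). SQSTM1, the KEAP1-binding autophagy receptor, stood at 579.8, 573 and 601 CPM in oeTNFRSF12A and 581, 567 and 571 CPM in oeControl libraries, with overlap and a log2 fold change of 0.03; 37.5% of its 50-base transcript words also lie in MRNIP on the opposite strand, which had 535 to 573 counts in oeTNFRSF12A and 553 to 633 in oeControl libraries. Within each library there were 4.32, 4.00 and 4.11 NFE2L2 counts per KEAP1 count in oeTNFRSF12A and 5.49, 5.25 and 5.31 in oeControl libraries. This ratio does not depend on library scaling, and its groups did not overlap. The exact two-sided permutation test gave p = 0.1, the smallest that 3 against 3 libraries allow. All NFE2L2 values were lower and all KEAP1 values higher in oeTNFRSF12A libraries, so this separation was set by values already given. MAFG per BACH1 count was likewise lower, at 0.860 ± 0.013 in oeTNFRSF12A and 0.936 ± 0.046 in oeControl libraries (SD, n = 3 each; exact permutation p = 0.1).

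**Figure D2:**
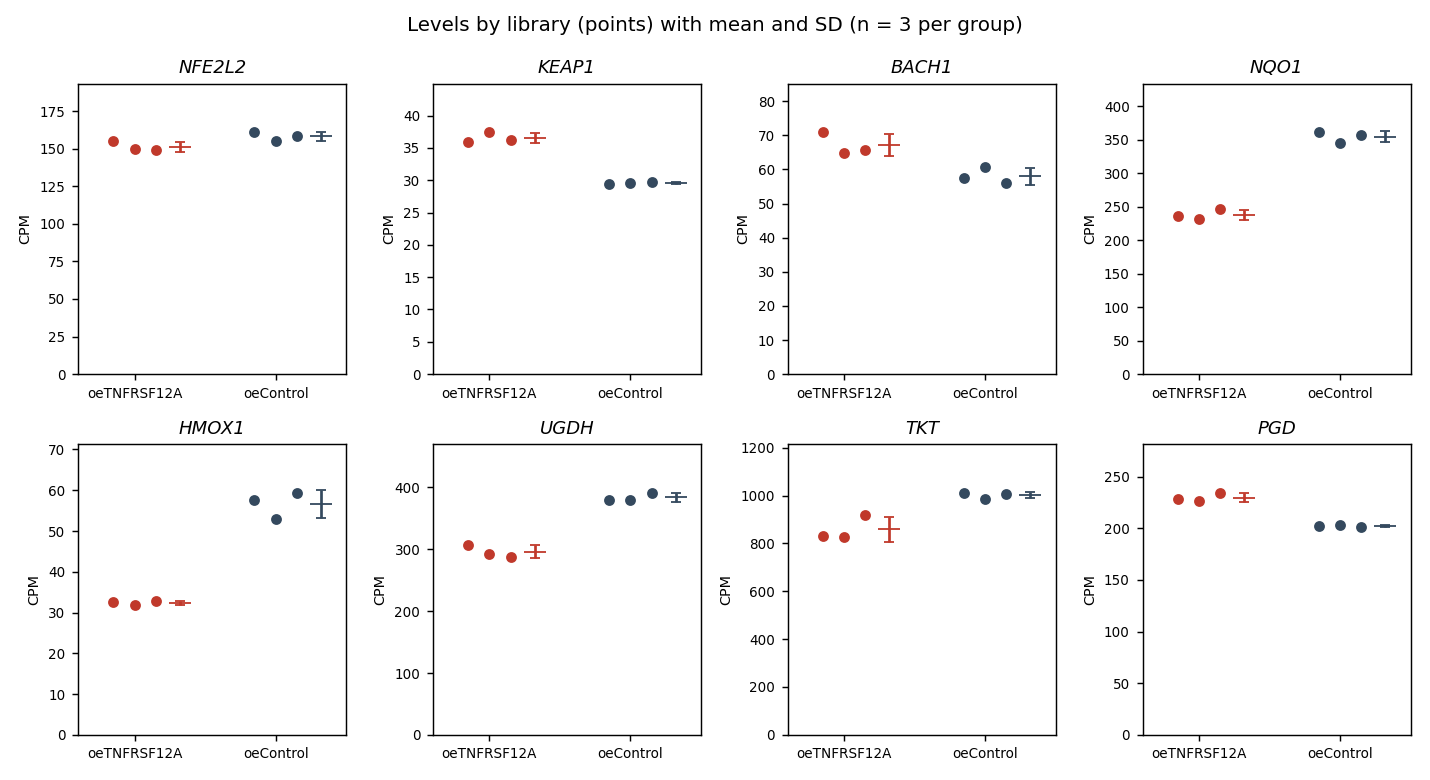
CPM of 8 of the genes in each library (points; oeTNFRSF12A red on the left, oeControl dark on the right), with the group mean and SD (n = 3 per group) beside the points; every vertical axis starts at 0. KEAP1, BACH1 and PGD are higher in oeTNFRSF12A libraries, NQO1, HMOX1, UGDH and TKT lower, and for NFE2L2 the points of the groups nearly meet.

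Of 17 listed regulators and partners of NRF2 outside the 32 genes, 15 could be tested. Of these 7 rose and the other 8 were not called, with a median log2 fold change of 0.10. That is 46.7% higher, where 21.2% of all genes tested rose and 21.1% fell. NFE2L3, a CNC factor related to NRF2, had 109 ± 3.49 CPM in oeTNFRSF12A and 56.1 ± 3.46 CPM in oeControl libraries (SD, n = 3 each; log2 fold change 0.96, SE 0.04, adjusted p = 9.20e-15 in edgeR). CUL3, the scaffold of the KEAP1 ligase, rose by 0.19 on the log2 scale and its RING partner RBX1, which was picked with its values in view, by 0.17. CREBBP, a coactivator that acetylates NRF2, rose by 0.21. The list thus mixes parts of the ligase that degrades NRF2 with a coactivator of it, so its count gives no direction for NRF2 activity.

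Of 6 genes for quinone, epoxide, carbonyl and glucuronide metabolism, 3 fell and 3 were not called (median log2 fold change -0.26). Among all genes tested 21.1% fell. NQO1 (chromosome 16, 69706996 to 69726951, minus strand), the quinone reductase that serves as the standard NRF2 readout, had 236, 231 and 246 CPM in oeTNFRSF12A libraries, against 362, 346 and 357 CPM in oeControl libraries. It fell by 33.0% with wide separation of the groups (log2 fold change -0.58, SE 0.03, adjusted p = 2.91e-13 in edgeR). UGDH, which makes UDP-glucuronic acid, had 307, 293 and 287 CPM in oeTNFRSF12A libraries and 380.0, 380.1 and 391 CPM in oeControl libraries. The microsomal epoxide hydrolase EPHX1 had 71.3, 76.2 and 71.1 CPM in oeTNFRSF12A libraries and 92.6, 90.9 and 91.6 CPM in oeControl libraries. Both fell without overlap, UGDH by 0.38 and EPHX1 by 0.33 on the log2 scale (adjusted p = 6.87e-10 and 3.09e-07 in edgeR). The carbonyl reductases did not pass: CBR1 stood at 65.1 ± 2.01 CPM in oeTNFRSF12A and 69.7 ± 1.251 CPM in oeControl libraries (SD, n = 3 each), with a log2 fold change of -0.10 and an adjusted p of 0.0631 in edgeR. CBR1 was called with upper-quartile factors, with a minimum count of 50 and without oeTNFRSF12A replicate 1 (log2 fold changes -0.11, -0.11 and -0.12). CBR3 was low, at 8.84 ± 0.17 CPM in oeTNFRSF12A and 8.57 ± 1.2 CPM in oeControl libraries, with a log2 fold change of 0.04 whose 95% interval ran from -0.17 to 0.26. OSGIN1, an oxidative stress-induced growth inhibitor, stood at 10.1 ± 0.33 CPM in oeTNFRSF12A and 11.5 ± 1.07 CPM in oeControl libraries and was not called (log2 fold change -0.18, 95% interval -0.37 to 0.0046; -0.11 without oeControl replicate 2). GENCODE places 575 bp of NQO1 exon under AC092115.2 and 464 bp of CBR1 exon under AP000688.1, on opposite strands. It likewise places 493 bp of CBR3 exon under CBR3-AS1 and 293 bp of UGDH exon under UGDH-AS1. Without a stated strand setting, reads of such pairs cannot be told apart.

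The aldo-keto reductases, which reduce aldehydes, ketones and steroids, had the lowest median log2 fold change of the roles, -0.57. Here 4 of 5 were called lower, where 21.1% of all genes tested were. AKR1C1, AKR1C2 and AKR1C3 lie side by side on chromosome 10, between 4963253 and 5107686. AKR1C1 had 486, 426 and 507 CPM in oeTNFRSF12A libraries and 786, 722 and 807 CPM in oeControl libraries. AKR1C2 had 521, 451 and 572 CPM in oeTNFRSF12A libraries and 789, 692 and 804 CPM in oeControl libraries. AKR1C3 had 302, 289 and 307 CPM in oeTNFRSF12A libraries and 430.5, 397 and 409 CPM in oeControl libraries. Each of the 3 fell without overlap. The log2 fold change of AKR1C1 was -0.71 (SE 0.07, adjusted p = 4.40e-04 in edgeR), that of AKR1C2 -0.57 (SE 0.12, adjusted p = 0.0186) and that of AKR1C3 -0.46 (SE 0.03, adjusted p = 5.07e-11). The call on AKR1C2 was lost without oeTNFRSF12A replicate 1 (log2 fold change -0.57, adjusted p = 0.0611), oeControl replicate 1 (-0.54, 0.0646) or oeControl replicate 3 (-0.52, 0.0604). AKR1C1 and AKR1C2 are near copies: 47.0% of the 50-base words of AKR1C2 coding transcripts also occur in AKR1C1 transcripts, so the division of reads between them rests on the authors' estimation. With their counts summed, a comparison chosen after the data were seen, the pair stood at 988 ± 102 CPM in oeTNFRSF12A and 1533 ± 105 CPM in oeControl libraries (SD, n = 3 each; log2 fold change -0.63, SE 0.10, adjusted p = 0.0062 in edgeR). As deposited, there were 0.922 ± 0.031 AKR1C1 counts per AKR1C2 count in oeTNFRSF12A and 1.01 ± 0.026 in oeControl libraries, without overlap (exact permutation p = 0.1).

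AKR1B10, a retinal reductase, had the lowest log2 fold change of the 32 genes, on few counts: 6.39, 6.21 and 7.17 CPM in oeTNFRSF12A libraries, against 11.8, 10.1 and 13 CPM in oeControl libraries (log2 fold change -0.82, SE 0.11, adjusted p = 1.03e-06 in edgeR). Its relative AKR1B1, aldose reductase of the polyol pathway, had 220.3, 190.4 and 259 CPM in oeTNFRSF12A libraries and 263, 217 and 278 CPM in oeControl libraries. These groups overlapped, and the log2 fold change of -0.18 had a 95% interval of -0.62 to 0.26 (adjusted p = 0.442 in edgeR). With the replicate number as a block, AKR1B1 was called lower (adjusted p = 2.01e-04 in edgeR). The labels do not say that these numbers pair the samples. The AKR1B1 value rested on single libraries: it was -0.08 without oeTNFRSF12A replicate 2, -0.30 without oeTNFRSF12A replicate 3, -0.28 without oeControl replicate 2 and -0.11 without oeControl replicate 3, and was called in none of these. Replicate 2 was the lowest library of both groups for all 5 aldo-keto reductases and for 12 of the 32 genes, and for 12.7% of all genes tested; this pattern was noticed after the values were seen.

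**Figure D3:**
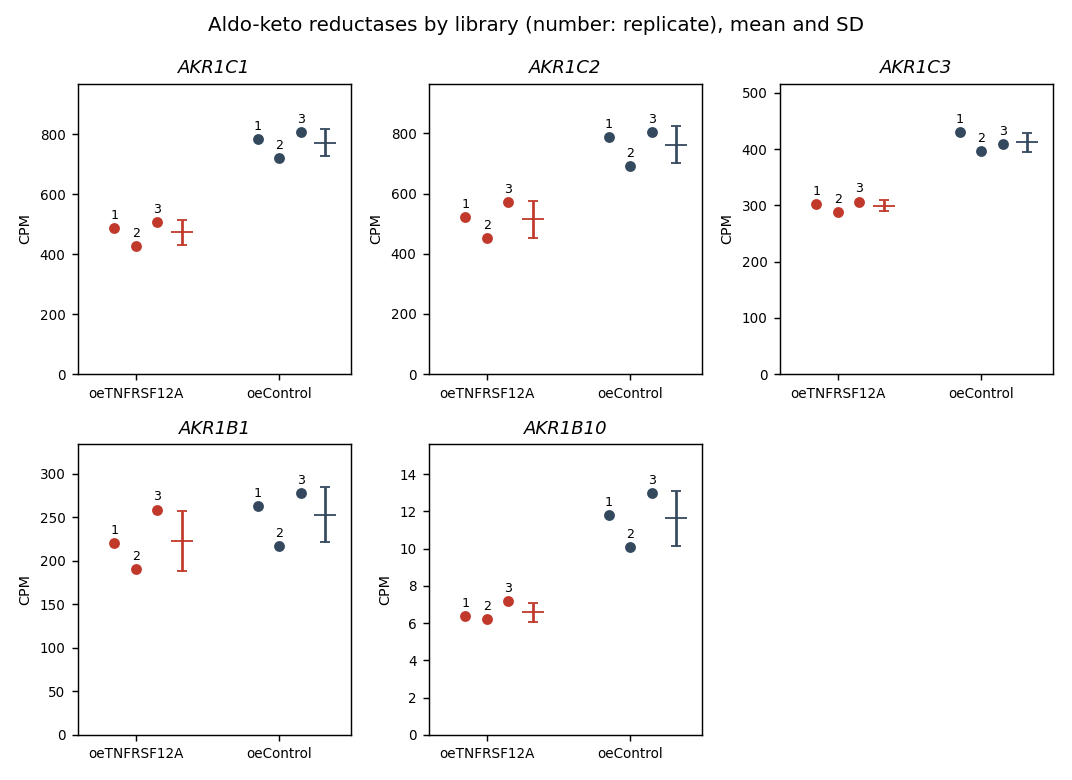
CPM of the 5 aldo-keto reductases in each library (points, numbered by replicate; oeTNFRSF12A red on the left, oeControl dark on the right), with group mean and SD (n = 3 per group); axes start at 0. Replicate 2 is lowest in each group of every panel, and the groups overlap for AKR1B1 alone of the 5.

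All 4 genes of haem breakdown, haem transport and iron storage fell, where 21.1% of all genes tested fell. HMOX1 (chromosome 22, 35380361 to 35394214, plus strand), the inducible haem oxygenase, had 32.5, 31.9 and 32.9 CPM in oeTNFRSF12A libraries, against 57.7, 52.9 and 59.4 CPM in oeControl libraries. The groups were far apart, and HMOX1 fell by 42.7% (log2 fold change -0.80, SE 0.05, adjusted p = 5.13e-12 in edgeR). SLC48A1, which moves haem out of endosomes and lysosomes, had 26.1, 26.5 and 28.0 CPM in oeTNFRSF12A libraries and 30.7, 32.7 and 32.5 CPM in oeControl libraries. It fell by less (log2 fold change -0.25, adjusted p = 9.65e-04 in edgeR), and there were 1.21 ± 0.035 HMOX1 counts per SLC48A1 count in oeTNFRSF12A and 1.77 ± 0.14 in oeControl libraries, without overlap (SD, n = 3 each; exact permutation p = 0.1). The ferritin light chain FTL had 1315, 1367 and 1522 CPM in oeTNFRSF12A libraries and 1786, 1642 and 1711 CPM in oeControl libraries. The ferritin heavy chain FTH1, the ferroxidase subunit, had 1381, 1411 and 1509.7 CPM in oeTNFRSF12A libraries and 1556, 1532 and 1552 CPM in oeControl libraries. Both fell without overlap, FTL by 0.29 and FTH1 by 0.11 on the log2 scale (adjusted p = 6.79e-04 and 0.0077 in edgeR), and oeTNFRSF12A replicate 3 lay nearest to the controls for both. Without that library the log2 fold changes were -0.35 and -0.15; without oeTNFRSF12A replicate 1 the call on FTH1 was lost (log2 fold change -0.08, adjusted p = 0.051). The FTH1 to FTL count ratio was 1.02 ± 0.030 in oeTNFRSF12A and 0.904 ± 0.031 in oeControl libraries, without overlap (exact permutation p = 0.1). Ferritin reads are uncertain in part, since GENCODE names 25 FTH1 and 16 FTL pseudogenes and 1267 bp of FTH1 exon are shared with BEST1 on the opposite strand; BEST1 itself had 98 to 117 counts in oeTNFRSF12A and 88 to 116 in oeControl libraries. Per kilobase of the median coding transcript, FTH1 and FTL had the highest levels of the 32 genes, 1877 and 1596 CPM per kb in oeTNFRSF12A and 2024 and 1951 CPM per kb in oeControl libraries.

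Of 4 glutathione genes 2 fell, and of 4 thioredoxin and peroxiredoxin genes 2 fell, where 21.1% of all genes tested fell. The others were not called, and the log2 fold changes ran from -0.24 to -0.04. GSR, which regenerates reduced glutathione, had 169, 162 and 163 CPM in oeTNFRSF12A libraries and 193, 193 and 198 CPM in oeControl libraries (log2 fold change -0.24, SE 0.03, adjusted p = 1.98e-06 in edgeR). GCLC, the catalytic subunit of the rate-limiting ligase of glutathione synthesis, had 56.2, 54.1 and 55.2 CPM in oeTNFRSF12A libraries and 63.5, 64.0 and 61.5 CPM in oeControl libraries (log2 fold change -0.19, SE 0.04, adjusted p = 8.76e-04 in edgeR). Both fell without overlap. The modifier subunit GCLM had 65.0, 58.8 and 55.5 CPM in oeTNFRSF12A libraries and 62.8, 59.0 and 63.3 CPM in oeControl libraries, with overlap and no call (log2 fold change -0.05, 95% interval -0.15 to 0.06). Glutathione synthetase, GSS, was not called either (log2 fold change -0.04). TXNRD1, the cytosolic thioredoxin reductase, had 543, 539 and 533 CPM in oeTNFRSF12A libraries and 617, 599 and 589 CPM in oeControl libraries. The peroxidase PRDX1 had 612, 604 and 614 CPM in oeTNFRSF12A libraries and 692, 672 and 661 CPM in oeControl libraries. Both fell without overlap (log2 fold changes -0.16 and -0.15, adjusted p = 8.30e-05 and 2.41e-04 in edgeR). TXN, their substrate thioredoxin, stood at 113.1 ± 4.11 CPM in oeTNFRSF12A and 118 ± 2.42 CPM in oeControl libraries without a call (log2 fold change -0.06). SRXN1, sulfiredoxin, which repairs overoxidised peroxiredoxins, stood at 76.6 ± 1.57 CPM in oeTNFRSF12A and 81.6 ± 1.95 CPM in oeControl libraries (log2 fold change -0.09, adjusted p = 0.0604 in edgeR); it was called with upper-quartile factors (-0.10) and with a minimum count of 50 (-0.10). Of the 50-base words of the SRXN1 transcript, 84.7% also belong to an overlapping model on the same strand, AL121758.1, so its level rests on how such reads were assigned. PRDX1 shares 379 bp of exon with MMACHC on the opposite strand. MMACHC had 157 to 198 counts in oeTNFRSF12A and 136 to 157 in oeControl libraries.

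In the pentose phosphate pathway, 1 enzyme rose and 1 fell, where 21.2% of all genes tested rose and 21.1% fell. PGD (chromosome 1, 10398592 to 10420144, plus strand), which makes NADPH and ribulose 5-phosphate, had 229, 226 and 234 CPM in oeTNFRSF12A libraries, against 202, 203 and 202 CPM in oeControl libraries. It rose by 0.18 on the log2 scale without overlap (SE 0.03, adjusted p = 3.79e-05 in edgeR). TKT (chromosome 3, 53224707 to 53256052, minus strand), the transketolase of the non-oxidative branch, had 829, 828 and 918 CPM in oeTNFRSF12A libraries and 1011, 987 and 1006 CPM in oeControl libraries. It fell by 0.22 on the log2 scale (SE 0.03, adjusted p = 1.79e-05 in edgeR); oeTNFRSF12A replicate 3 again lay nearest to the controls, and without it the log2 fold change was -0.27. TALDO1, transaldolase, stood at 105 ± 5.10 CPM in oeTNFRSF12A and 106 ± 2.4 CPM in oeControl libraries (SD, n = 3 each), and its log2 fold change of -0.02 had a 95% interval of -0.10 to 0.06. ME1, the cytosolic malic enzyme and another source of NADPH, stood at 106 ± 5.69 CPM in oeTNFRSF12A and 109 ± 5.03 CPM in oeControl libraries (log2 fold change -0.04, 95% interval -0.13 to 0.04). PGD counts per TALDO1 count were 2.2 ± 0.066 in oeTNFRSF12A and 1.91 ± 0.044 in oeControl libraries. NQO1 counts per PGD count were 1.04 ± 0.014 in oeTNFRSF12A and 1.75 ± 0.044 in oeControl libraries. Neither ratio overlapped between the groups (SD, n = 3 each, exact permutation p = 0.1 each). As NQO1 was lower and PGD higher in every oeTNFRSF12A library, the separation of their ratio was already set.

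The rest of the pentose phosphate list split evenly. Of 9 tested genes outside the 32, 3 rose and 3 fell, with a median log2 fold change of 0.01. Of all genes tested 21.2% rose and 21.1% fell. H6PD, a hexose phosphate dehydrogenase of the endoplasmic reticulum, fell by 0.38 and PRPS1, which makes phosphoribosyl pyrophosphate, rose by 0.13 on the log2 scale. The count of 3 higher was 1 without oeTNFRSF12A replicate 1 or 3 or oeControl replicate 1, and 0 without oeControl replicate 2. Among 10 other sources of NADPH 1 rose (MTHFD2, log2 fold change 0.18) and 2 fell (IDH2, -0.52, and ALDH1L2, -0.57). ALDH1L2 was low, at a mean of 2.03 CPM in oeTNFRSF12A and 3.02 CPM in oeControl libraries. IDH2 had 47.2 and 67.8 CPM. MTHFD2 was not called without oeControl replicate 2, where 0 of 11 tested rose. Without oeControl replicate 1, 1 of 10 tested fell. The count lower was 3 of 11 without oeTNFRSF12A replicate 2 or 3 or oeControl replicate 2 or 3.

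A list of further NRF2 targets held more falls than rises. It was chosen with earlier results of these data known and is not independent evidence. Of 26 tested, 14 fell and 2 rose (median log2 fold change -0.18), where 21.1% and 21.2% of all genes tested fell and rose. The export pumps ABCC3 and ABCC4 had 256 ± 4.65 and 391.8 ± 8.98 CPM in oeTNFRSF12A and 352 ± 7.12 and 517 ± 4.47 CPM in oeControl libraries (SD, n = 3 each), log2 fold changes of -0.46 and -0.40. ABCB6, a porphyrin transporter, had 21.1 ± 0.82 CPM in oeTNFRSF12A and 33.5 ± 0.30 CPM in oeControl libraries (log2 fold change -0.67). The adjusted p of these 3 was at most 1.27e-09 in edgeR. The 2 that rose were TRIM16 (0.31) and PRDX6 (0.15), and the cystine transporter gene SLC7A11 stood at -0.10 without a call; TRIM16 and SLC7A11 were picked with their values in view. GSTP1, usually an abundant glutathione transferase gene, had 0 counts in each oeTNFRSF12A library and 1 count over the 3 oeControl libraries, and was likewise picked with its values in view.

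The neighbouring pathways were mixed. Of all genes tested 21.2% rose and 21.1% fell. These shares were 21.4% and 28.6% for other glutathione genes, and 10% and 20% for other thioredoxin and peroxide genes. They were 14.8% and 40.7% for other haem and iron genes. Of 28 other glutathione genes 6 rose and 8 fell (median log2 fold change -0.06); GGT5 (-0.72), the glutaredoxin GLRX (-0.74) and SLC3A2 (-0.45), the partner chain of the cystine transporter, had the lowest p. Of 20 other thioredoxin and peroxide genes 2 rose and 4 fell (median -0.06), led by TXNIP (-0.70), the thioredoxin inhibitor, MSRB3 (0.28) and PRDX6. Of 27 other haem and iron genes 4 rose and 11 fell (median -0.08), with ABCB6, the ferrireductase STEAP3 (-0.35) and the metal transporter SLC39A14 (-0.28) in front. Of 8 other aldo-keto, carbonyl and epoxide genes 4 fell and 4 were not called (median -0.19), led by EPHX2 (-0.56), CBR4 (-0.24) and AKR7A2 (-0.27); the count was 2 without oeTNFRSF12A replicate 1 or oeControl replicate 1. Of 5 autophagy receptors other than SQSTM1, 4 fell and 1 was not called: OPTN (-0.25), CALCOCO2 (-0.20), TAX1BP1 (-0.16) and TOLLIP (-0.17), the last of which was picked with its values in view. Some genes stand on several of these lists; over all of them 135 distinct genes were tested, of which 24 rose and 45 fell (median -0.06).

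**Figure D4:**
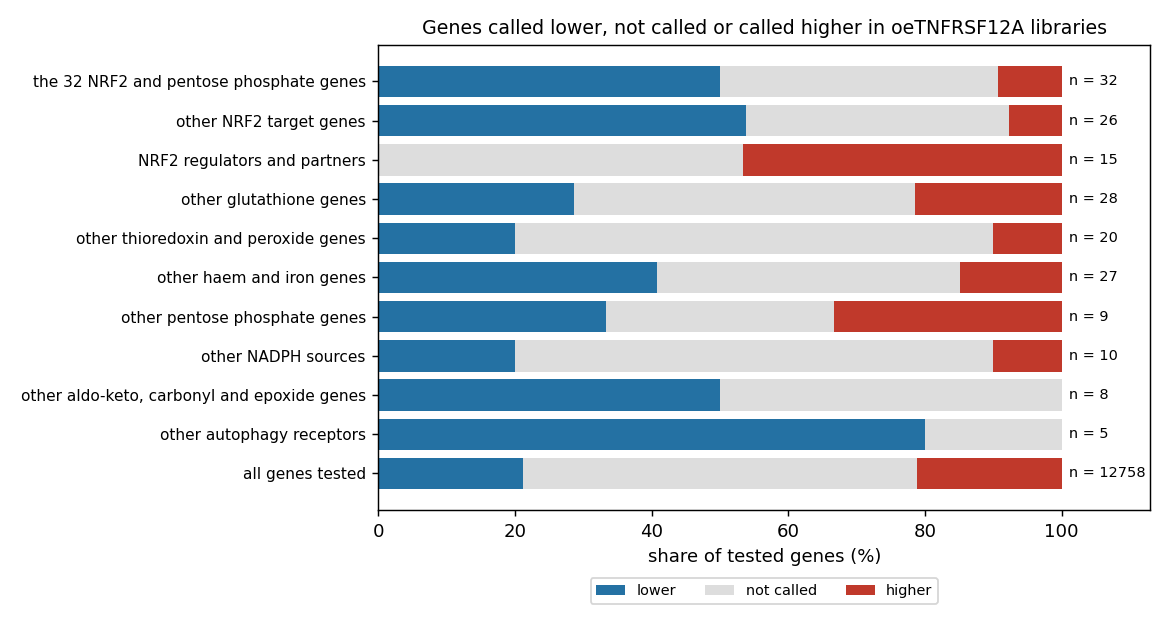
Share of tested genes called lower (blue), not called (grey) and called higher (red) in oeTNFRSF12A libraries, for the 32 genes, for 9 lists of related genes outside them and for all 12758 genes tested (bottom bar); n is the number of genes tested. Blue covers 16 of the 32 genes, 53.8% of the other NRF2 targets and 21.1% of all genes; the list of regulators has no blue share.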

How the data were processed

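Polyadenylated RNA was sequenced from 3 oeTNFRSF12A and 3 oeControl libraries, with groups taken from the titles. RSEM 1.3.1, HISAT2 2.2.1 and Bowtie2 2.4.5 are listed, with no roles, per the submitters' processing notes; on annotation, strand setting and filters the sources used here say nothing. The deposited table holds estimated counts per gene symbol, read as such because RSEM is listed, and every value is whole. It has 19396 rows; the 1 row without a gene name has 0 counts and was set aside.

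With edgeR 4.0.16 in R 4.3.3, filterByExpr (minimum count 10) kept 12758 genes, TMM factors scaled the libraries, and a robust quasi-likelihood F test with group as the only term compared oeTNFRSF12A with oeControl; calls are at an adjusted p under 0.05 over all genes. CPM uses the TMM-scaled totals of the tested genes; 95% intervals come from the fit. Library totals of 18154839 to 18406885 counts set the counting precision. Alternatives were DESeq2 1.42.0, limma 3.58.1 voom, other scalings and filters, a replicate block and leaving out each library. Positions, exon overlaps and shared 50-base words come from GENCODE release 29, promoters from RefSeq.

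All 32 genes, the 3 genes of lowest p in each related list and TNFRSF12A are named; any further gene is marked in the text as picked with its values in view. The 32 genes and the lists were chosen with earlier results of these data known, so the lists are not independent evidence. Some genes that this rule names are not reported here.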

Additional observations from a re-analysis of the deposited data

How the results depend on the processing

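The counts of genes called changed little: 15 to 18 of the 32 genes fell and 3 rose in each of 14 alternative fits, and all 14 gave within 1.5 times the 5402 genes called overall. Leaving out 1 library gave 4506 to 5298 genes called and 15 to 16 of the 32 lower; DESeq2 called 3926 genes, with 16 and 3 of the 32. Of the 19 genes called, 17 were called in every alternative; the exceptions, AKR1C2 and FTH1, are given above. Of the 13 not called, 10 were called in none; the others were CBR1, SRXN1 and AKR1B1. The direction turned for uncalled genes near 0: leaving out 1 library gave log2 fold changes of -0.11 to 0.0043 for GCLM, -0.018 to 0.17 for CBR3 and -0.058 to 0.0024 for TALDO1, which was 0.0031 with library totals alone; the cause was not tested. DESeq2 called 1 of the other pentose phosphate genes higher, 1 of the other NADPH sources lower and 2 of the other haem and iron genes higher; library totals alone gave 2 of the other NADPH sources higher, and a minimum count of 50 gave 1 lower. The labels do not say whether replicate numbers pair the samples. Deviations from the group means correlated at -0.019, 0.017 and 0.035 for the same numbers over 12758 genes. Such a value over all genes does not settle whether single genes vary with the replicate number. With the replicate number as a block 17 of the 32 genes fell and 3 rose, of 5396 genes called in all, the added call being AKR1B1 (log2 fold change -0.18, adjusted p = 2.01e-04 in edgeR). Counting noise limits CBR3, OSGIN1 and AKR1B10, at 114 to 236 counts per library, most.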
